A study of Mus musculus with 2 samples.

Results

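Pcdh9, Gpc6, Efna5, Tenm3, Sdk1, Cacna2d1, Ptprk, Rbfox2, Meis2 and Tshz2 are 10 genes, of 32285 measured, that had been singled out in tumors of RM-1 cells, a mouse PCa cell line, as genes of neural adhesion that mark the cancer cells. They were described by their UMIs (unique molecular identifiers, each standing for 1 captured RNA molecule) in barcodes gated as cancer cells, by keratin share, and in immune barcodes. The values that led to the choice came from these same libraries, so the contrasts between cancer and immune barcodes, between barcodes of low and high keratin share and among the 10 genes are descriptions and carry no test.

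Orthotopic RM-1 tumors in the prostate of wild-type C57BL/6 mice were profiled by droplet-based scRNA-seq after vehicle (control) or enzalutamide (ENZ), an androgen receptor inhibitor. There was 1 mouse and 1 library for each treatment, so no spread between replicates exists, and treatment, mouse and library cannot be told apart. RM-1 is 1 transplanted line, and immune cells were enriched during sorting, so numbers of barcodes are not tumor composition. The control library held 170830346 UMIs and the ENZ library 162030149. No test across conditions is possible, and every interval is a 95% interval that covers counting error only.

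A barcode was gated as cancer when it had at least 8000 UMIs, at most 20% mitochondrial UMIs, at most 1 UMI of Ptprc (CD45, the pan-leukocyte phosphatase) and fewer than 10 UMIs of Dcn, Lum and Dpt, genes of fibroblast matrix. This gave 3896 control barcodes with a median of 21193 UMIs and 4274 ENZ barcodes with a median of 22468. The gate asks for no positive marker. Of 9 epithelial markers, Krt8, Krt18 and Krt19, keratins of simple epithelium, reached 435, 356 and 144 CPM (UMIs scaled to a common total) in control and 511, 361 and 180 CPM in ENZ barcodes. Epcam, the epithelial adhesion molecule, was at 3.08 and 2.94 CPM, Cdh1 (E-cadherin) at 1.19 and 0.98 CPM, and Cldn3, a tight junction claudin, had no UMI in either library. No keratin UMI was found in 345 control and 188 ENZ barcodes of the gate. Immune barcodes, with at least 2 Ptprc UMIs and at least 1000 UMIs, numbered 4674 and 3406. In all, 40 barcode sequences with at least 1000 UMIs occurred in both libraries, 7 of them among cancer-gated and 4 among immune barcodes.

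The members act in several ways at the surface and in the nucleus. In the nervous system, cells recognize each other through adhesion receptors that bind across the gap between membranes, and through ligands and receptors that guide axons. Pcdh9 encodes a protocadherin, Sdk1 a sidekick adhesion molecule of the immunoglobulin superfamily, Tenm3 a teneurin that binds latrophilins, Ptprk a receptor phosphatase that adheres to its own kind, Gpc6 a glypican that carries heparan sulfate, and Efna5 an ephrin ligand of Eph receptors. The other 4 are not adhesion molecules. Cacna2d1 encodes a subunit of voltage-gated calcium channels that also binds thrombospondins, Rbfox2 a splicing regulator, Meis2 a homeodomain transcription factor, and Tshz2 a zinc-finger factor.

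All 10 were readily detected in the cancer gate. The gene with the fewest UMIs there was Gpc6, with 10233 in control and 10812 in ENZ barcodes, and that with the most was Rbfox2, with 26960 and 33410. Together the members took 1798 CPM (1790 to 1806) in control and 1855 CPM (1847 to 1863) in ENZ. After each barcode was thinned to 5000 UMIs, the median cancer-gated barcode held a UMI of 5 of the 10 genes in either library. In 4.98% of control and 1.64% of ENZ barcodes no member was found.

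Among adhesion molecules and ligands, Pcdh9 was at 171 CPM in control and 130 CPM in ENZ, Gpc6 at 102 and 96.3 CPM, and Efna5 at 218 and 191 CPM. Tenm3 was at 187 and 193 CPM, Sdk1 at 200 and 223 CPM, and Ptprk at 182 and 220 CPM. Among the other genes, Cacna2d1 was at 126 and 158 CPM, Rbfox2 at 270 and 298 CPM, Meis2 at 169 and 157 CPM, and Tshz2 at 172 and 189 CPM. CPM is not corrected for length, so these levels are not ranked between genes.

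Every member was higher in cancer-gated than in immune barcodes, by a ratio of CPM of 3.07 (Gpc6) to 3.69 (Pcdh9) in control and 3.34 (Sdk1) to 4.50 (Pcdh9) in ENZ. All 10 were at least 2-fold higher in both libraries, as were 9.52% of the 7258 genes compared, and 26.0% of the other genes spanning at least 200 kb. Against immune barcodes with at least 8000 UMIs the log2 ratios were lower, from 1.013 (Sdk1 in ENZ) to 1.44 (Pcdh9 in control). This contrast is one the genes were chosen on. The near-equal ratios went with a subset of the immune barcodes. In the control library, 490 of the 4674 immune barcodes (10.5%) had at least 2 keratin UMIs. Their median was 28940.5 UMIs, and they held 87.1% of the members' UMIs in the immune class. In the ENZ library 312 barcodes (9.16%), with a median of 21253 UMIs, held 84.3%. Leaving out the 5% of barcodes with the highest doublet score took the immune barcodes to 4284 and 3166, and all 10 members were at least 2-fold higher without them too, beside 14.9% of 7336 genes.

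In immune barcodes with at most 1 keratin UMI the members were near the bottom of the scale. Cacna2d1 was at 5.05 CPM (4.21 to 6.01) in control and 7.50 CPM (6.26 to 8.92) in ENZ, and Tenm3 at 7.82 and 8.44 CPM. Rbfox2 was at 17.4 and 15.1 CPM, and Tshz2 at 15.8 and 19.5 CPM. Against these barcodes the cancer gate was higher by 8.78 (Gpc6) to 25.0 times (Cacna2d1) in control and by 9.71 (Tshz2) to 22.8 times (Tenm3) in ENZ. All 10 were at least 2-fold higher, beside 25.4% of 7472 genes. After thinning, Pcdh9 was found in 35.7% (Clopper-Pearson interval 34.2 to 37.2) of control cancer-gated barcodes against 2.56% (1.89 to 3.38) of these immune barcodes, and Rbfox2 in 67.6% (66.1 to 69.1) against 4.48% (3.59 to 5.52). The immune barcodes compared here numbered 1875 in the control library, since 2309 had under 5000 UMIs. In free RNA, measured in barcodes of at least 10 and under 500 UMIs, the summed members were at 750 CPM in control and 905 CPM in ENZ. With free RNA subtracted all 10 members were at least 2-fold higher in the cancer gate than in immune barcodes, beside 9.78% of genes. The subtraction took the same profile from each barcode, and immune barcodes held fewer member UMIs, so it weighed more on the immune side. Nothing is read from this count.

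Immune subsets, gated by their markers among barcodes with at most 1 keratin UMI, held little of the members. In the control library the summed members were at 66.7 CPM in T cells, 102 CPM in NK cells, 96.4 CPM in dendritic cells, 123 CPM in macrophages, 135 CPM in monocytes and 154 CPM in neutrophils. In the ENZ library they were at 119, 44.6, 45.4, 105, 68.7 and 117 CPM in the same order. In each of these subsets the summed members stood far below the 1798 and 1855 CPM of the cancer gate.

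**Figure D1:**
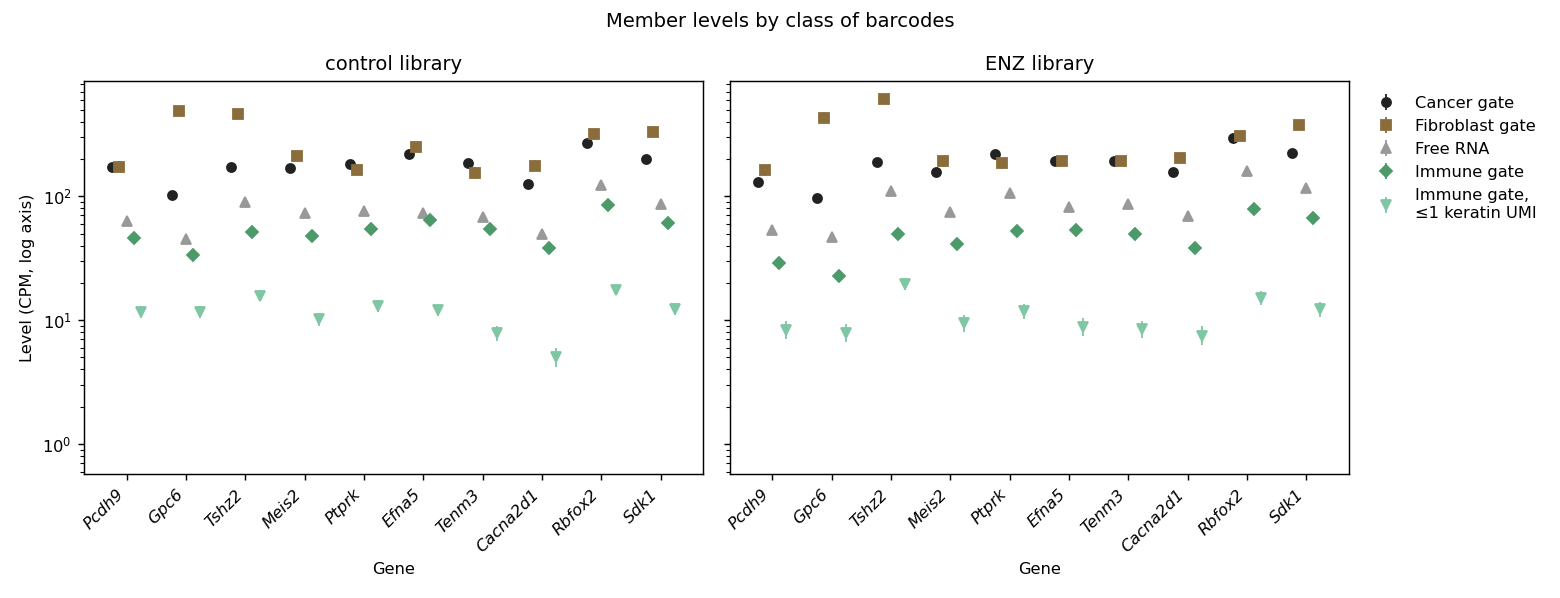
Level of each member in CPM (log axis) in control and ENZ libraries, with 1 point per class of barcodes and bars for the exact Poisson 95% interval. Immune barcodes with at most 1 keratin UMI lie lowest for every gene (5.05 to 19.5 CPM), and the fibroblast gate lies above the cancer gate in both libraries, beyond counting error, for Gpc6, Tshz2, Sdk1, Cacna2d1 and Meis2.

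The name of the set did not hold against fibroblasts. Barcodes that met the other conditions but had at least 10 UMIs of Dcn, Lum and Dpt numbered 78 in control and 90 in ENZ, and Col1a1, the fibrillar collagen, was at 6507 CPM there in the control. Gpc6 was at 486 CPM (457 to 516) in these control barcodes and 426 CPM (400 to 455) in the ENZ barcodes, so that the cancer gate stood at 0.21 and 0.23 times that level. Tshz2 was at 465 and 611 CPM, with the cancer gate at 0.37 and 0.31 times, and Sdk1 at 328 and 374 CPM, with the cancer gate at 0.61 and 0.60 times. For Cacna2d1 the cancer gate was at 0.72 times (0.65 to 0.80) in control and 0.77 times (0.71 to 0.85) in ENZ, and for Meis2 at 0.80 times (0.73 to 0.88) and 0.82 times (0.75 to 0.91). Pcdh9 did not differ beyond counting error in the control library (ratio 0.99, 0.89 to 1.10) and was at 0.80 times in ENZ. After thinning, Pcdh9 was found in 21.8% (13.2 to 32.6) of control fibroblast-gated barcodes against 35.7% (34.2 to 37.2) of cancer-gated ones. In ENZ it was found in 24.4% (16.0 to 34.6) against 31.0% (29.6 to 32.4). Ptprk alone was above the fibroblast level in both, by 1.11 times (0.998 to 1.24) and 1.19 times (1.08 to 1.32), though the interval of the first reached 1. Tenm3 was at 1.20 times (1.08 to 1.35) in control and 0.997 times (0.91 to 1.10) in ENZ. Efna5 was at 0.87 times (0.80 to 0.95) and 0.99 times (0.90 to 1.10), and Rbfox2 at 0.84 times (0.78 to 0.91) and 0.97 times (0.90 to 1.05), so both were below the fibroblast level beyond counting error in control alone. After thinning, Ptprk was found in 35.9% of fibroblast-gated and 53.3% of cancer-gated control barcodes, and in 34.4% and 60.3% in ENZ. Efna5 and Tenm3 were also found less often in the fibroblast gate of both libraries, and Rbfox2 in that of ENZ alone. Gpc6, Tshz2, Sdk1, Cacna2d1 and Meis2 were found more often there in both. For Efna5, Rbfox2 and Meis2 the intervals of the fibroblast and cancer gates overlapped in both libraries. No member was at least 2-fold higher than in fibroblast-gated barcodes in both libraries, beside 1.28% of 7110 genes, and 2 (Gpc6 and Tshz2) were at least 2-fold lower, beside 9.37%. Of the other genes spanning at least 200 kb, 1.18% were at least 2-fold higher and 27.0% lower. The median log2 ratio of the members was -0.29 in control and -0.30 in ENZ, and that of the other long genes -0.22 and -0.34. Krt8 was at 153 CPM in the control barcodes of the fibroblast gate.

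Of markers that define neurons, Schwann cells and neuroendocrine cells, Ncam1 and Snap25 were the most abundant in the cancer gate. The 6 neuronal markers summed to 28.5 CPM in control and 36.4 CPM in ENZ, led by the synaptic genes Snap25 at 13.5 and 17.1 CPM and Syt1 at 11.4 and 15.5 CPM, and Elavl4 had no UMI in ENZ. The 6 Schwann cell markers summed to 3.72 and 2.86 CPM. Of 6 neuroendocrine markers, Ncam1, a neural cell adhesion molecule, was at 49.1 and 58.1 CPM, while Chga, Chgb, Syp and Insm1 were each under 1 CPM in both libraries.

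Cancer-gated barcodes were split in each library into 3 groups of equal size by the share of their UMIs from Krt8, Krt18 and Krt19, named keratin-low, keratin-mid and keratin-high. They held 1299, 1299 and 1298 control barcodes, with medians of 1.003, 4.87 and 13.8 keratin UMIs per 10000 UMIs, and 1425, 1425 and 1424 ENZ barcodes, with medians of 1.94, 7.06 and 15.7. The keratin-low group was also shallower, with a median of 14956 UMIs against 28556.5 in the keratin-high group of the control library, and 16175 against 28447 in ENZ. The summed members were at 2758, 1934 and 1194 CPM from the keratin-low to the keratin-high group in control and at 2766, 1808 and 1373 CPM in ENZ. Both libraries showed the same order.

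The members differed widely in this gradient. Pcdh9 had the steepest. It was at 395, 183 and 46.1 CPM from the keratin-low to the keratin-high group in control and at 323, 110 and 36.1 CPM in ENZ, which made the keratin-low group 8.57 times (8.17 to 9.002) and 8.94 times (8.48 to 9.42) the keratin-high group. Gpc6 was at 213, 109 and 39.9 CPM in control and 200.5, 92.2 and 40.1 CPM in ENZ, with ratios of 5.33 (5.05 to 5.64) and 4.997 (4.74 to 5.27). Tshz2 was at 347, 175 and 79.5 CPM and at 381, 168 and 96.5 CPM, with ratios of 4.37 (4.20 to 4.55) and 3.95 (3.81 to 4.09). For each of these 3 genes the counting intervals of the 3 groups did not overlap.

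Meis2, Ptprk and Efna5 took a middle place. Meis2 was at 269 CPM in the keratin-low and 105 CPM in the keratin-high control group, a ratio of 2.56, and the ratio was 2.23 in ENZ. The ratios of Ptprk were 2.24 and 2.04 and those of Efna5 2.07 and 1.78. Tenm3, Cacna2d1, Rbfox2 and Sdk1 were flatter, at 1.70, 1.53, 1.38 and 1.31 in control and 1.45, 1.51, 1.33 and 1.05 in ENZ. Sdk1 was at 224, 221 and 171 CPM in control and at 227, 230 and 216 CPM in ENZ. Its counting intervals in the keratin-low and keratin-mid groups overlapped in both libraries. They were 218 to 231 and 216 to 226 in control, and 221 to 232 and 225 to 235 in ENZ.

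In both libraries 7 of 10 members (all but Tenm3, Rbfox2 and Sdk1) were at least 1.5-fold higher in the keratin-low group, beside 9.19% of the 6717 genes compared. At 2-fold there were 5 (Pcdh9, Gpc6, Tshz2, Meis2 and Ptprk), beside 2.99%. None was at least 1.5-fold lower, beside 4.45%. The median log2 ratio of the members was 1.11 in control and 0.93 in ENZ, and that of all genes 0.09 and 0.04. The genes were chosen on this contrast too, and nothing is read from these counts.

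Over 10 groups of rising keratin share the curves had different forms. In the control library Pcdh9 was highest in group 2 from the lowest keratin share, at 437 CPM, and was at 26.2 CPM in group 10. In the ENZ library it was at 457 CPM in group 1 and 28.5 CPM in group 10. Tshz2 was at 437 CPM in group 1 and 59.2 CPM in group 10 of the control, and at 510 and 86.6 CPM in those of the ENZ library. Sdk1 was lower at both ends, at 180 CPM in group 1, 260 CPM in group 3 and 153 CPM in group 10 of the control. Barcodes of control group 1 held less of every member but Tshz2 than those of group 2, and there Apoe, an apolipoprotein of macrophages, was at 870 CPM against 156 CPM in group 2.

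**Figure D2:**
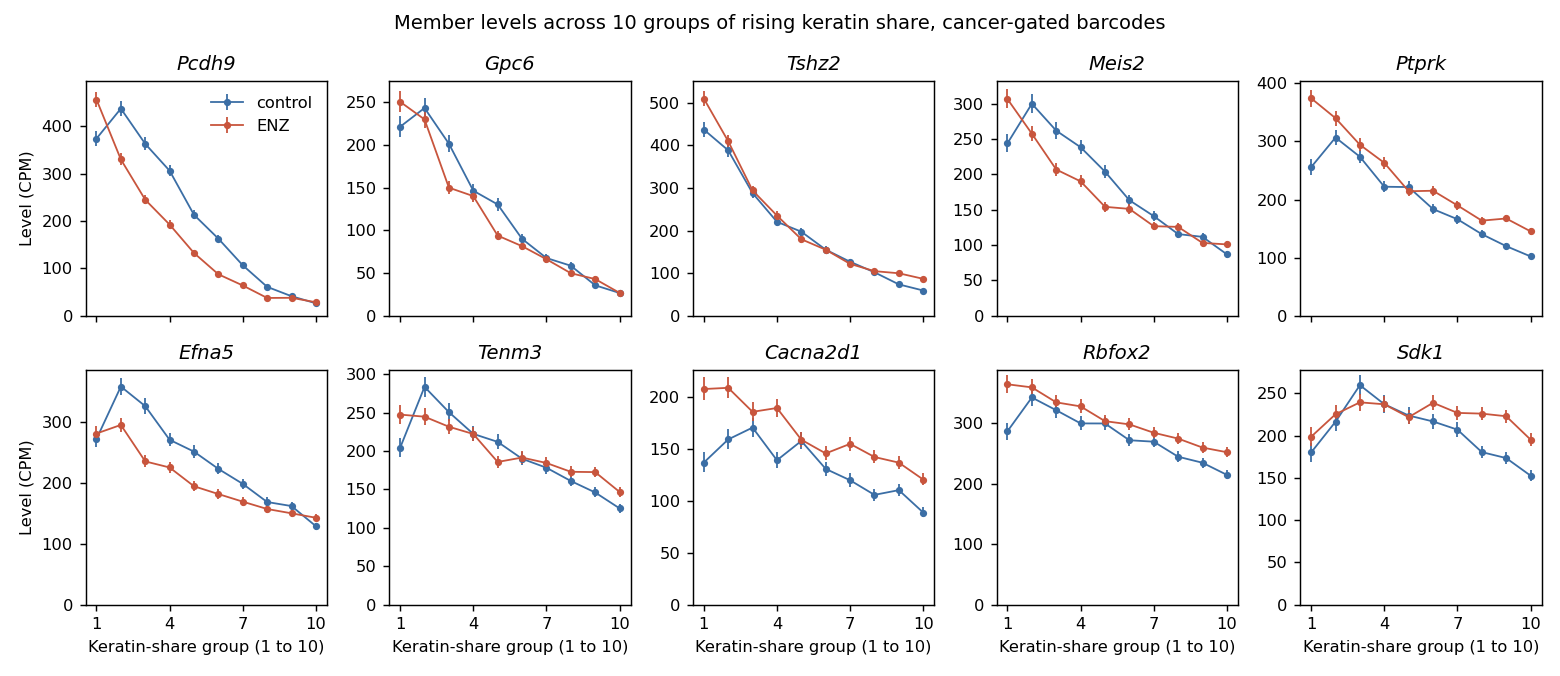
Level of each member in CPM across 10 groups of keratin share in cancer-gated barcodes (group 1 has the lowest share), with 1 line per library and exact Poisson 95% intervals. Pcdh9, Gpc6 and Tshz2 are steep, while Sdk1 stays between 153 and 260 CPM in the control library and between 195 and 239 CPM in ENZ.

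Markers of several other cell types moved with the keratin share. In both libraries the summed macrophage, monocyte, dendritic, T cell, fibroblast, mural and endothelial markers were higher in the keratin-low than in the keratin-high group, and the summed NK, B cell, neuronal and neuroendocrine markers lower. Neutrophil and Schwann cell markers were lower there in control and higher in ENZ. The neuronal markers summed to 22.1 CPM in the keratin-low and 33.3 CPM in the keratin-high control group and to 26.1 and 43.7 CPM in ENZ, and the NK markers to 2.56 and 3.41 CPM and to 2.46 and 3.72 CPM. The 5 macrophage markers summed to 520 CPM in the keratin-low and 66.5 CPM in the keratin-high control group, and to 178 and 40.9 CPM in ENZ, with Apoe the most abundant. The 5 mural markers summed to 224 and 33.1 CPM and to 179 and 21.5 CPM, led over the whole gate by Acta2, and the 5 fibroblast markers to 407 and 94.9 CPM and to 392 and 70.7 CPM, led by Col1a1. No marker of these 3 lists was at 0. Without barcodes that held C1q, mural or endothelial UMIs above a small number, a step added after the data had been seen, 6 members rather than 7 were at least 1.5-fold higher in the keratin-low group, beside 7.86% of 6651 genes. Over all thinned barcodes the summed members had Spearman correlations of 0.41 in control and 0.37 in ENZ with the summed fibroblast markers, of 0.25 and 0.27 with the mural markers and of -0.06 and -0.03 with the macrophage markers. RNA of rRNA-like genes moved with the keratin share as well. Its 6 genes, led by Gm42418, summed to 21629 CPM in the keratin-low and 10792 CPM in the keratin-high control group. In ENZ they summed to 47467 and 28715 CPM. The part of these cell types and of rRNA-like RNA in the gradient was not tested.

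What the members shared, and the rule did not use, was length. On GRCm38 in GENCODE M21 all 10 span at least 200 kb, from 203 kb (Meis2, chr2:115863064-116065839, minus strand) to 1051 kb (Gpc6, chr14:116925315-117976544, plus strand), against 3.34% of all genes. Of the 6327 other genes with at least 20 CPM in the cancer gate of both libraries, 6.21% did. The limit lies just under the span of Meis2, so the count of 10 depends on it. Pcdh9 spans 877 kb (chr14:93013410-93890679, minus strand) and Sdk1 974 kb (chr5:141241490-142215586, plus strand), and introns made up 94.1% (Meis2) to 99.4% (Gpc6) of the spans. All but Efna5 and Meis2 overlap other annotated genes, mostly predicted transcripts, and how shared reads were assigned is not stated. Whether reads in introns were counted is not given in the sources used here.

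Other long genes followed the keratin gradient as well. Genes of at least 200 kb, the members left out, took 6.12% of UMIs in the keratin-low and 3.80% in the keratin-high control group, and 6.66% and 4.59% in ENZ. Their median log2 ratio of keratin-low over keratin-high group was 0.64 and 0.47, and 37.1% of them were at least 1.5-fold higher in the keratin-low group of both libraries. Malat1, a long noncoding RNA kept in the nucleus, was at 13083 CPM in the keratin-low and 6980 CPM in the keratin-high control group, and at 13786 and 9420 CPM in ENZ.

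Set against the UMIs of these other long genes, a comparison added after the data had been seen, the keratin-low group still held more Pcdh9 (5.33 and 6.16 times), Gpc6 (3.31 and 3.45), Tshz2 (2.71 and 2.72) and Meis2 (1.59 and 1.54), which were the 4 members past 1.5-fold, beside 2.26% of 6717 genes. Ptprk was at 1.39 and 1.41 times and Efna5 at 1.28 and 1.23 times. Tenm3 and Cacna2d1 were near 1, and Rbfox2 (0.86 and 0.92) and Sdk1 (0.81 and 0.72) were lower in the keratin-low group on this scale. The part of nuclear or intronic RNA in the gradient was not tested.

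**Figure D3:**
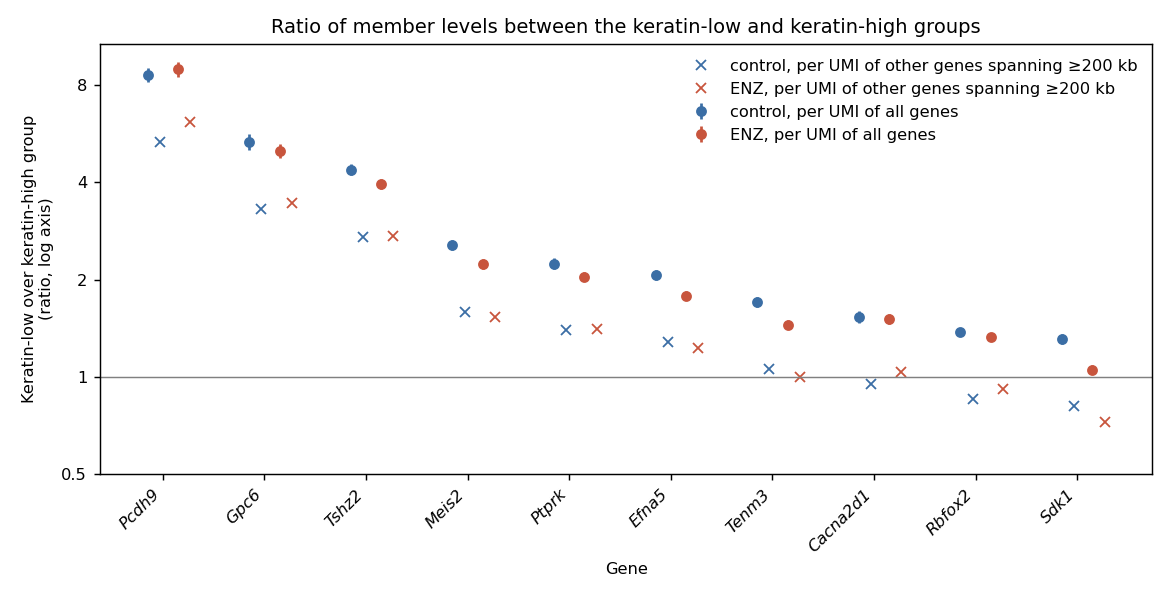
Ratio of each member between the keratin-low and keratin-high groups (log axis), with circles per UMI of all genes and their 95% counting interval, and crosses per UMI of the other genes spanning at least 200 kb. Pcdh9, Gpc6, Tshz2 and Meis2 stay above 1.5 on both scales, whereas Rbfox2 and Sdk1 fall from above to below 1.

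RefSeq promoter windows on GRCm38.p6, each of 300 bases around a start site, were given for 8 members, with 9 windows because Pcdh9 has a pair that overlap. No window was used for Gpc6 and Rbfox2. Windows of the 2 steepest of these members (Pcdh9 and Tshz2) and of the 2 flattest in control (Sdk1 and Cacna2d1) are shown so that members at both ends of the gradient can be compared, 5′ to 3′ on the strand of the gene, with the GC box GGGCGG, read on either strand, in capitals.
Pcdh9 (chr14:93890620-93890919, minus strand): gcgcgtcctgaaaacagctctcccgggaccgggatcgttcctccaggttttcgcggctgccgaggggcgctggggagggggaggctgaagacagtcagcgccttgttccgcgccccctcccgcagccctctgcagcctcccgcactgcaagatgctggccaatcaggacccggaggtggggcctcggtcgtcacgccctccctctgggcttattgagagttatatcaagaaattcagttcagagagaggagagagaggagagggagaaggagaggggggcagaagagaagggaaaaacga
Tshz2 (chr2:169632259-169632558, plus strand): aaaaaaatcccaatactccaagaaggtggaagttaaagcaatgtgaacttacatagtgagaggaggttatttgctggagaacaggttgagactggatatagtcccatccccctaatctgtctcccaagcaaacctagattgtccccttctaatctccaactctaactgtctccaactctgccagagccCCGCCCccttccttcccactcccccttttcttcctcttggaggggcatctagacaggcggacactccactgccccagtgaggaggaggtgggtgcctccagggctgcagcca
Sdk1 (chr5:141241284-141241583, plus strand): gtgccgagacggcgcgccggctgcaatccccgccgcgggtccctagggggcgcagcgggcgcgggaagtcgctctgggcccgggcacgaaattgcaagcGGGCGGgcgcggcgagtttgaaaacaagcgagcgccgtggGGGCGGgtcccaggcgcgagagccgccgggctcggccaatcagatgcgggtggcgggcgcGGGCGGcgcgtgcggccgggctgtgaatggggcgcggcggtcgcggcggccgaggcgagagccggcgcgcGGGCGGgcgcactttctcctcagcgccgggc
Cacna2d1 (chr5:15934441-15934740, plus strand): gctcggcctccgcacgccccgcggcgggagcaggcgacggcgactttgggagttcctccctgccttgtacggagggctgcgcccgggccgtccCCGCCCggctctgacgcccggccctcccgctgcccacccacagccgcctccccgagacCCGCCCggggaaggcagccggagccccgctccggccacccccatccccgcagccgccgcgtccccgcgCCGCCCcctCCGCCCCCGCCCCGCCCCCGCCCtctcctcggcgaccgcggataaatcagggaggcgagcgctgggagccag

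The GC box occurred 7 times in the window of Cacna2d1, 4 times each in those of Sdk1 and Efna5, and once each in those of Ptprk and Tshz2, so 5 of 9 windows held it, against 35.7% of all 32841 windows. GC content was 80.0% for Cacna2d1 and 78.3% for Sdk1, 62.3% for the Pcdh9 window shown and 52.0% for Tshz2, beside a median of 52.7% over all windows. The MEIS core TGACAG was in none of the 9 windows (19.2% of all) and the AP-1 letters TGACTCA in none (5.204%). The E-box CAGGTG and the TEAD letters GGAATG were each in those of Ptprk and Tenm3 (20.2% and 14.7% of all). Each motif was searched on both strands, and none of them contains another. These matches describe letters in the windows.

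The members varied together from barcode to barcode. Over cancer-gated barcodes thinned to 5000 UMIs, the 45 pairs had a median Spearman correlation of 0.196 in the control (3896 barcodes, range 0.108 to 0.345) and 0.119 in ENZ (4274 barcodes, range 0.037 to 0.328), and all 45 were above 0 in both. Between a member and 6327 other genes the median was 0.014 and 0.005, and between a member and 393 other genes of at least 200 kb it was 0.093 and 0.059. The barcodes of a library share its depth and preparation, and such correlations of sparse counts are weak.

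The pairs with the highest values held Pcdh9. In the control library it correlated with Gpc6 at 0.345, with Tshz2 at 0.338 and with Meis2 at 0.331, and in ENZ with Tshz2 at 0.328 and with Gpc6 at 0.323. Gpc6 and Tshz2 were at 0.264 in control and 0.249 in ENZ. Sdk1 and Cacna2d1 made the weakest pair in ENZ, at 0.037. Within the keratin-low group alone the median correlation was 0.272 in control and 0.144 in ENZ, and within the keratin-high group 0.109 and 0.073.

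**Figure D4:**
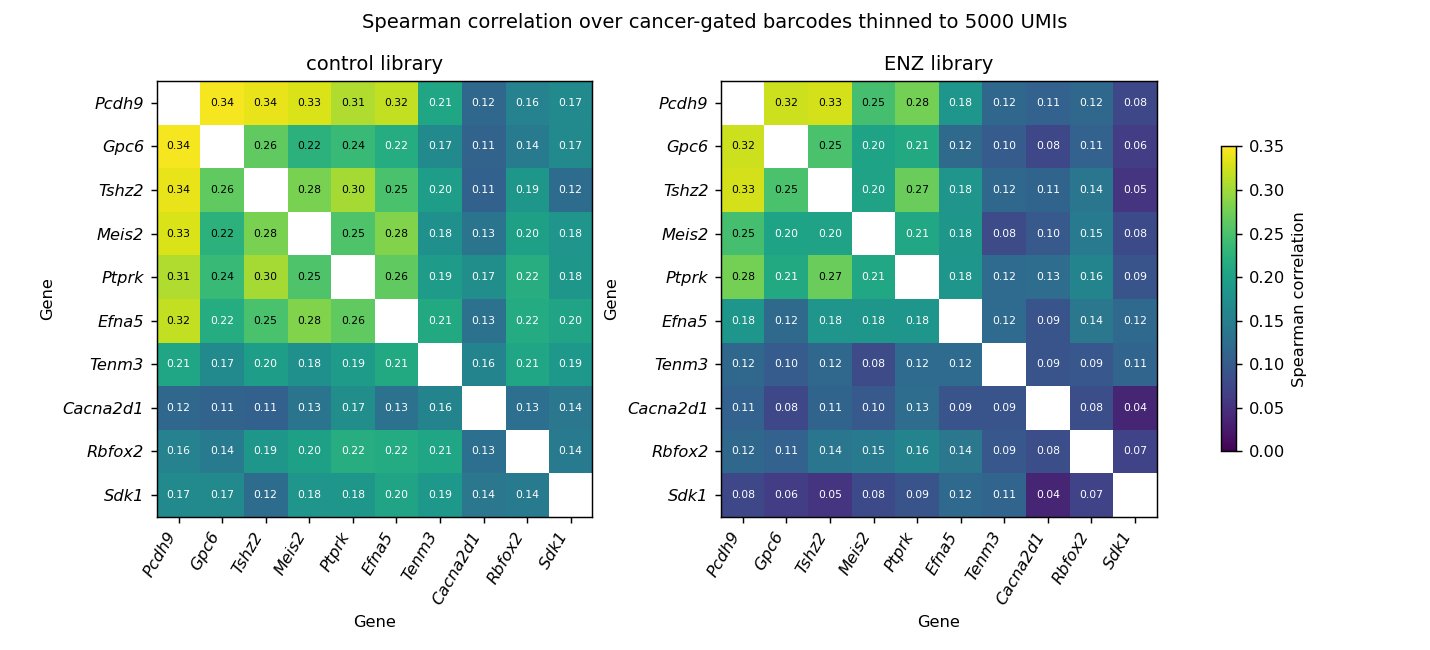
Spearman correlation between each pair of members over cancer-gated barcodes thinned to 5000 UMIs, with the control library at the left, the ENZ library at the right, and colour and number giving the correlation. Most pairs among Pcdh9, Gpc6, Tshz2, Meis2, Ptprk and Efna5 are brighter than the rest, and Sdk1 and Cacna2d1 form the darker rows. The exception is Gpc6 with Efna5, at 0.217 in control and 0.121 in ENZ. Ptprk with Rbfox2, outside this block, is at 0.218 and 0.158.

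Summed over the 10 genes, the members correlated with the other long genes at 0.76 in control and 0.72 in ENZ, with Malat1 at 0.54 and 0.47, with keratin at -0.32 and -0.38 and with 5 markers of cycling cells at -0.20 and -0.24. With rRNA-like UMIs the summed members correlated at 0.35 and 0.33, and with the UMIs of a barcode before thinning at -0.25 and -0.32. Sdk1 stood apart, at 0.07 with the cycling markers and -0.01 with keratin in the control. Among the genes most like the summed members in both libraries were Adgrl3 (0.57 and 0.53), Malat1, Ext1, Setbp1, Dlgap1, Foxp1 and Zbtb20. Adgrl3 encodes latrophilin 3, a receptor of teneurins and FLRT proteins, Ext1 an enzyme that builds heparan sulfate and Foxp1 a forkhead factor. Those least alike were Gapdh (-0.53 and -0.45), Rps2, Eif5a, Mif and Ppia, all short and abundant. Of the 50 genes most like the sum, 42 (84%) span at least 200 kb, against 6.21% of the genes ranked.

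Genes related to the members were sparse. Of all genes that reached 20 CPM in the cancer gate of both libraries, 7.73% of 6337 were at least 1.5-fold higher in the keratin-low group of both and 4.45% lower, and among those of at least 200 kb, the members left out, 35.6% were higher. Of 37 paralogs, 6 reached this level, with 3 higher and 1 lower. Pcdh7 was at 317 CPM in the keratin-low and 191 CPM in the keratin-high control group (ratio 1.66, and 1.52 in ENZ), Ptprm at 76.1 and 29.7 CPM (2.56 and 2.16) and Meis1 at 187 and 90.3 CPM (2.07 and 1.99). Tenm4, a teneurin like Tenm3, ran the other way. It was at 21.4 CPM in the keratin-low and 60.6 CPM in the keratin-high control group and at 27.9 and 82.7 CPM in ENZ (0.35 and 0.34), although it spans 740 kb.

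Of 44 ligands, receptors and partners of members, 13 reached 20 CPM, and 6 of these were at least 1.5-fold higher in the keratin-low group of both libraries, beside the 7.73% of all genes, with none lower. Adgrl3 was at 442 and 86.5 CPM in the control (ratio 5.11, and 4.67 in ENZ) and Adgrl2, a second latrophilin, at 131 and 56.3 CPM (2.33 and 1.95). Flrt2, which binds latrophilins, had ratios of 2.24 and 2.31, Thbs1 of 2.87 and 3.14 and Thbs2 of 1.92 and 1.98. Thbs1 and Thbs2 encode thrombospondins, and in the control fibroblast gate they stood at 356 and 395 CPM. Thbs1 was higher still in immune barcodes with at most 1 keratin UMI, at 644 CPM in control and 835 CPM in ENZ, against 51.6 and 52.8 CPM in the cancer gate. The Eph receptors that ephrin-A5 can bind were low, with Epha2 at 7.56 CPM and Epha7 at 7.03 CPM in control and no UMI of Epha8.

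Of 61 further genes of neural adhesion and guidance, 10 reached 20 CPM, and 5 were at least 1.5-fold higher in the keratin-low group of both libraries, beside the same 7.73%. The semaphorin gene Sema3a had ratios of 2.90 and 2.19, the neuroligin gene Nlgn2 1.73 and 1.504, the guidance ligand gene Slit2 1.69 and 1.58 and the netrin receptor gene Unc5b 1.62 and 1.53. Ncam1 (0.81 and 0.84) and Cadm1 (0.97 and 0.75) were not higher there. Of 12 splicing regulators and targets listed with Rbfox2, 6 reached 20 CPM and none passed 1.5-fold in both libraries. Mbnl1 was at 1.43 and 1.52 and Qk at 1.49 and 1.35. No gene of these 4 lists that reached 20 CPM differed 1.5-fold or more between ENZ and control cancer-gated barcodes. Beside it, 0.313% of 6713 genes were as far higher and 1.07% lower. A count of none is near these shares, and nothing is read from it.

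The ratios of ENZ over control lay between 0.76 and 1.26 for the members in the cancer gate. Of the 10 genes, none was at least 1.5-fold higher in ENZ cancer-gated barcodes, beside 0.313% of 6713 genes, and none 1.5-fold lower, beside 1.07%. A count of none among 10 genes is near these shares, and nothing is read from it. Summed, they were at 1.03 times (1.03 to 1.04) the control level. Pcdh9 was lowest at 0.76 times (0.74 to 0.78), followed by Efna5 at 0.88, Meis2 at 0.93 and Gpc6 at 0.94 times. Tenm3 was at 1.03, Tshz2 at 1.09, Rbfox2 at 1.10, Sdk1 at 1.12 and Ptprk at 1.20 times, and Cacna2d1 was highest at 1.26 times (1.23 to 1.28). Among the ratios of all genes compared, that of Pcdh9 was at percentile 2.28 and that of Cacna2d1 at percentile 95.04, with the other members between them. With 1 mouse a group, the spread between animals is unknown. The ENZ library also had more rRNA-like RNA, with Gm42418 at 29338 CPM against 10941 CPM in the control. With rRNA-like, mitochondrial and ribosomal protein genes left out of the total, no member passed 1.5-fold either, beside 0.358% of genes higher and 1.03% lower.

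By keratin share Pcdh9 was at 0.82 times in the keratin-low, 0.60 times (0.58 to 0.63) in the keratin-mid and 0.78 times in the keratin-high group. The keratin-mid group was the one place among these 3 where a member passed 1.5-fold, beside 1.19% of 6743 genes lower and 0.623% higher. In the keratin-low group 2.61% of 6884 genes were as far lower and 0.726% higher, and in the keratin-high group 0.788% of 6595 genes lower and 0.470% higher. The bounds of the groups differed between libraries, since the ENZ barcodes had more keratin. Ptprk was at 1.20, 1.08 and 1.32 times and Cacna2d1 at 1.30, 1.13 and 1.32 times across the groups, and so both were higher in ENZ barcodes of each. Among immune barcodes, Pcdh9 was at 0.62 times (0.57 to 0.68), beside 2.68% of 6746 genes at least 1.5-fold lower and 3.79% higher, and no other member passed 1.5-fold. The immune barcodes with at least 2 keratin UMIs held most of these UMIs, as given above. In those with at most 1, Pcdh9 was at 8.32 CPM in ENZ and 11.6 CPM in control, a ratio of 0.72 (0.58 to 0.88). Gpc6 was at 0.68 times (0.55 to 0.83) and Cacna2d1 at 1.49 times (1.15 to 1.91) there. All 10 members were under the 20 CPM required for a call in these barcodes of both libraries, so none could be called.

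**Figure D5:**
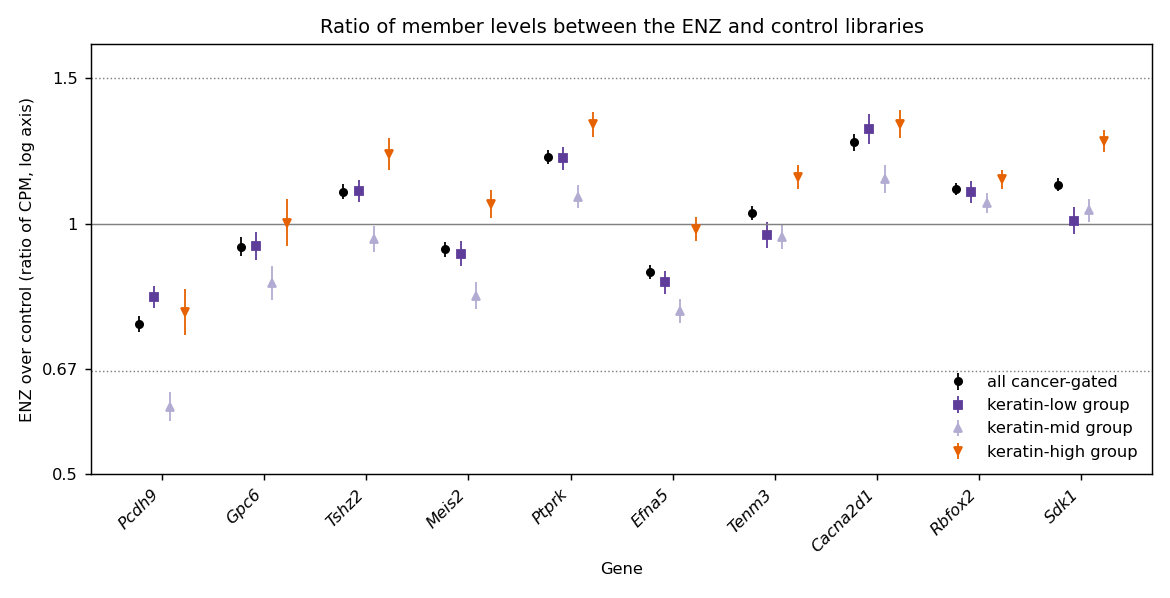
Ratio of each member's CPM in ENZ over control (log axis), in all cancer-gated barcodes and in each keratin group, with exact 95% counting intervals and dotted lines at 1.5-fold higher and lower. Pcdh9 lies lowest, at 0.60 in the keratin-mid group, and Cacna2d1 and Ptprk lie highest, at 1.32 in the keratin-high group.

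Member levels differed across the limits of the gate. Barcodes of 6000 to under 8000 UMIs, just outside it, held 1117 CPM of the summed members in control and 1390 CPM in ENZ, against 2293 and 2643 CPM in those of 8000 to under 10000 UMIs, just inside. Barcodes with 1 Ptprc UMI held 1510 and 1589 CPM and those with 2 held 1043 and 1315 CPM. Barcodes with 5 to under 10 UMIs of Dcn, Lum and Dpt held 2648 and 2712 CPM and those with 10 to under 15 held 3315 and 2785 CPM, from 23 and 26 barcodes.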

How the data were processed

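The deposited files hold unnormalized UMI counts of 1 control and 1 ENZ tumor for every gene and every barcode. The file headers name Cell Ranger 7.2.0, whereas the submitters' processing notes name Cell Ranger 2.1.1 and mm10, and intron counting is not given in the sources used here. The labels name 1 sample per group. Of the gene identifiers, 32235 matched GENCODE M21.

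From the deposited counts, UMIs were summed over gated barcodes and scaled to CPM. Levels carry exact Poisson intervals, and their ratios carry conditional binomial ones, at 95%. PCR duplicates were already collapsed by UMI. Genes with at least 20 CPM in either of the classes compared were included, and calls were ratios of 2 (cell classes) or 1.5 (keratin groups, ENZ). Correlations used barcodes thinned to 5000 UMIs (seed 1). Doublets were not removed. An alternative left out the 5% of barcodes with the highest scrublet score (scanpy 1.11.5). The interval and thinning code was tested on simulated data. Scripts ran in Python 3.11.15 with scipy 1.17.1, numpy 2.4.6 and pandas 2.3.3.

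The members and gene lists were chosen with earlier results of these data known. Genes named are the members, their listed relatives and cell markers, and the 8 most and 5 least like the summed members by the correlation nearer 0 of both libraries. Some genes of these lists are not reported here. Alternatives changed gates, scaling, free RNA and thinning. No test between treatments was made, because each has 1 library.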

Additional observations from a re-analysis of the deposited data

Results flagged for a closer look

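For 4 members the ratio of ENZ over control lay on opposite sides of 1 in different classes of barcodes, each with a counting interval that did not include 1. The classes were the keratin groups, all immune barcodes, those with at most 1 keratin UMI, and the fibroblast gate. The difference between classes was not tested, and with 1 library per treatment it cannot be set against a spread between mice. Tenm3 was at 1.14 times in the keratin-high group and 1.25 times in the fibroblast gate but at 0.967 times in the keratin-mid group and 0.915 times in immune barcodes. Rbfox2 was at 1.09, 1.06 and 1.13 times from the keratin-low to the keratin-high group but at 0.916 times in immune barcodes. Meis2 was at 1.06 times in the keratin-high group but at 0.921 times in the keratin-low and 0.821 times in the keratin-mid group and 0.852 times in immune barcodes. Tshz2 was at 1.10 times in the keratin-low and 1.21 times in the keratin-high group but at 0.960 times in the keratin-mid group. It was at 1.24 times in immune barcodes with at most 1 keratin UMI and at 1.31 times in the fibroblast gate. Immune barcodes with at least 2 keratin UMIs held most of the members' UMIs in the immune class, as given above. In those with at most 1, Tenm3 was at 1.08, Rbfox2 at 0.867 and Meis2 at 0.936 times. Each of these intervals included 1. Rbfox2 was thus below 1 beyond counting error only in all immune barcodes.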

How the results depend on the processing

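No paired analysis was possible because there is a single library per treatment. Under every alternative run, all 10 members were at least 2-fold higher in cancer-gated than in immune barcodes. None passed 1.5-fold between ENZ and control in the whole gate under any of them. In the main setting the shares were 9.52% of 7258 genes for the first count, and 0.313% higher and 1.07% lower of 6713 for the second. Shares were computed for some alternatives only. The genes were chosen on the first contrast, and the second count is near its shares, so nothing is read from either. The log2 ratios of cancer-gated over immune barcodes ranged widely, from 1.013 (Sdk1 in ENZ) and 1.11 (Efna5 in ENZ) against immune barcodes with at least 8000 UMIs to 4.64 (Cacna2d1 in control) against those with at most 1 keratin UMI. The count higher in the keratin-low group was 6 or 7, except 4 per UMI of the other genes spanning at least 200 kb. On that scale the log2 ratio of keratin-low over keratin-high group turned to -0.30 (Sdk1), -0.0747 (Cacna2d1) and -0.22 (Rbfox2) in the control and to -0.0013 (Tenm3), -0.46 (Sdk1) and -0.12 (Rbfox2) in the ENZ library. With at least 5000 UMIs that of Sdk1 in ENZ was -0.0417, and with median-of-ratios scaling the log2 ratio of Tenm3 between ENZ and control was -0.0012. The cause was not tested.

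The median correlation among members also moved. In the control it was 0.263 with at least 5000 UMIs, 0.145 with at least 15000, 0.177 without barcodes with C1q, mural or endothelial UMIs, 0.106 when thinned to 2000 and 0.244 when thinned to 8000 UMIs, and 0.272 and 0.109 in the keratin-low and keratin-high groups. In ENZ it was 0.181, 0.114, 0.118, 0.0666 and 0.153, and 0.144 and 0.0725, in the same order, and also 0.111 with at most 10% mitochondrial UMIs and 0.114 with Ptprc at 0. Over 10 other thinnings it was 0.179 to 0.202 in the control and 0.119 to 0.132 in ENZ.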
